A study of Mus musculus with 6 samples.

Results

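The 6 genes described here encode the 5 subunits of the interleukin-17 (IL-17) receptor family, Il17ra, Il17rb, Il17rc, Il17rd and Il17re, and the adaptor Act1, encoded by Traf3ip2. They were chosen by gene symbol, and 6 of 6 were found among 23402 genes of the deposited expression table. Whole terminal ileum, the end of the small intestine, was taken for RNA sequencing from 6 mice at an age of 6 weeks, after 6 days of DSS (dextran sodium sulfate), a polysaccharide given in drinking water that injures the intestinal epithelium. The 3 Cre-positive mice (Il17rafl/fl;Atoh1-cre+) carried floxed Il17ra alleles and a Cre recombinase driven by Atoh1, the transcription factor gene of the secretory lineage (Paneth, goblet and enteroendocrine cells). The 3 Cre-negative mice (Il17rafl/fl;Atoh1-cre-) were littermates with the same floxed alleles and no Cre, and both groups received DSS. The comparison asks how the ileum of mice meant to lack IL-17RA in secretory cells differs from that of their littermates. The sources used here do not name the floxed exons, and Il17ra in cells outside the Atoh1 lineage is not targeted by this design. The tissue is called ileum as labelled, although its defining bile acid genes were low. Fabp6, the ileal bile acid binding protein, stood at 0.316, 1.02 and 2.41 FPKM in Cre-positive and 1.22, 0.316 and 9.79 FPKM in Cre-negative mice, and the ileal bile acid transporter Slc10a2 ranged from 0.223 to 0.391 FPKM in Cre-positive and from 0.0669 to 1.94 FPKM in Cre-negative mice.

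IL-17 cytokines act on pairs of receptor chains. IL-17RA is the shared chain: it pairs with IL-17RC to bind IL-17A and IL-17F, with IL-17RB to bind IL-25, and with IL-17RE to bind IL-17C. The receptors and Act1 share a cytoplasmic SEFIR domain, through which Act1 is recruited and in turn engages TRAF proteins, NF-kB and factors that stabilize mRNA. IL-17RD, also known as Sef, was first described as an inhibitor of fibroblast growth factor signalling. In the gut, IL-17 signalling in epithelium is known for inducing antimicrobial proteins and the receptor that transports IgA.

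All 6 genes were detected in all 6 libraries, and none of them separated Cre-positive from Cre-negative ileum. Il17rc was by far the most abundant member, and the shared chain Il17ra stood at a much lower level. Levels are FPKM, fragments per kilobase of transcript scaled to depth, which allows genes to be compared within a library. Il17rc averaged 54.0 FPKM over the 6 libraries, Traf3ip2 11.8, Il17ra 6.81, Il17rd 2.65, Il17rb 1.77 and Il17re 0.980 FPKM. This order held in every library, and it depends on the transcript lengths behind FPKM. The ranges of neighbouring genes in the order did not overlap. The closest neighbours were Il17rd and Il17rb, with a geometric mean ratio of 1.51 and a range of 1.20 to 1.72. Il17rc lay above 92.3% of the genes detected in at least 1 library, Il17ra above 54.1% and Il17re above 28.3%.

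The most and the least abundant members are neighbours in the genome. Il17re lies on the plus strand of chromosome 6 from 113458484 to 113470758 (GRCm38), and Il17rc starts 668 bases downstream of its end on the same strand, from 113471427 to 113483140. Il17rc stood 55.9 times as high as Il17re (geometric mean, 36.6 to 69.4 over the 6 libraries). Il17ra is on the same chromosome, from 120463247 to 120487559, and its longest transcript has 13 exons. The promoter windows of the neighbouring pair are printed because they lie so close and yet belong to genes at opposite ends of the family. The Il17re window lies wholly inside the gene span given above, since its RefSeq start is downstream of the start of that span. Each window runs from 250 bases before to 50 bases after the RefSeq transcription start (GRCm38.p6, plus strand), at chr6:113471205-113471504 for Il17rc and chr6:113458521-113458820 for Il17re, and capitals mark CG dinucleotides.
Il17rc: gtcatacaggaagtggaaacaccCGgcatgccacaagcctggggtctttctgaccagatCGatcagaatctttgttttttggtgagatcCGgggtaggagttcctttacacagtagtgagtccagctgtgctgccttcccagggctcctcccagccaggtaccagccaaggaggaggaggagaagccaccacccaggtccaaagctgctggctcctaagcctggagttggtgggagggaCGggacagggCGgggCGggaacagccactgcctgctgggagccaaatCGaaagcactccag
Il17re: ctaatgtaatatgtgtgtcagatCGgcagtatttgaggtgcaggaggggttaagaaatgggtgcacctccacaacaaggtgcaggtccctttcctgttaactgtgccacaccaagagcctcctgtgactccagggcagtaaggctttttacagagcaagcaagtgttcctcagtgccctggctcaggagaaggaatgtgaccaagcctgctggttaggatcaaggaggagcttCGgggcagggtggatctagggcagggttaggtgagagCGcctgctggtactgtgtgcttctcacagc

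The Il17rc window held 7 CG dinucleotides and 58.7% G and C bases, and the Il17re window 3 and 53.7%, beside medians of 7 and 52.7% over 32851 promoter windows of the same length. Searched on both strands, the GC box GGGCGG had 2 matches in the Il17rc window and 0 in the Il17re window. At least 1 match was present in 35.7% of all windows. The windows of Il17rb and Il17rd, both on chromosome 14, held 32 and 19 CG dinucleotides and 1 and 3 GC boxes. The TATA box TATAAA, present in 13.6% of windows, had 0 matches in the 4 windows examined, and the AP-1 site TGANTCA, present in 7.81%, had 1 match, in Il17rb. These matches describe letters only, and CG content did not follow the order of the levels, since the window of the low-abundance Il17rb was the richest. Windows of Il17ra and Traf3ip2 were not used here.

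**Figure D1:**
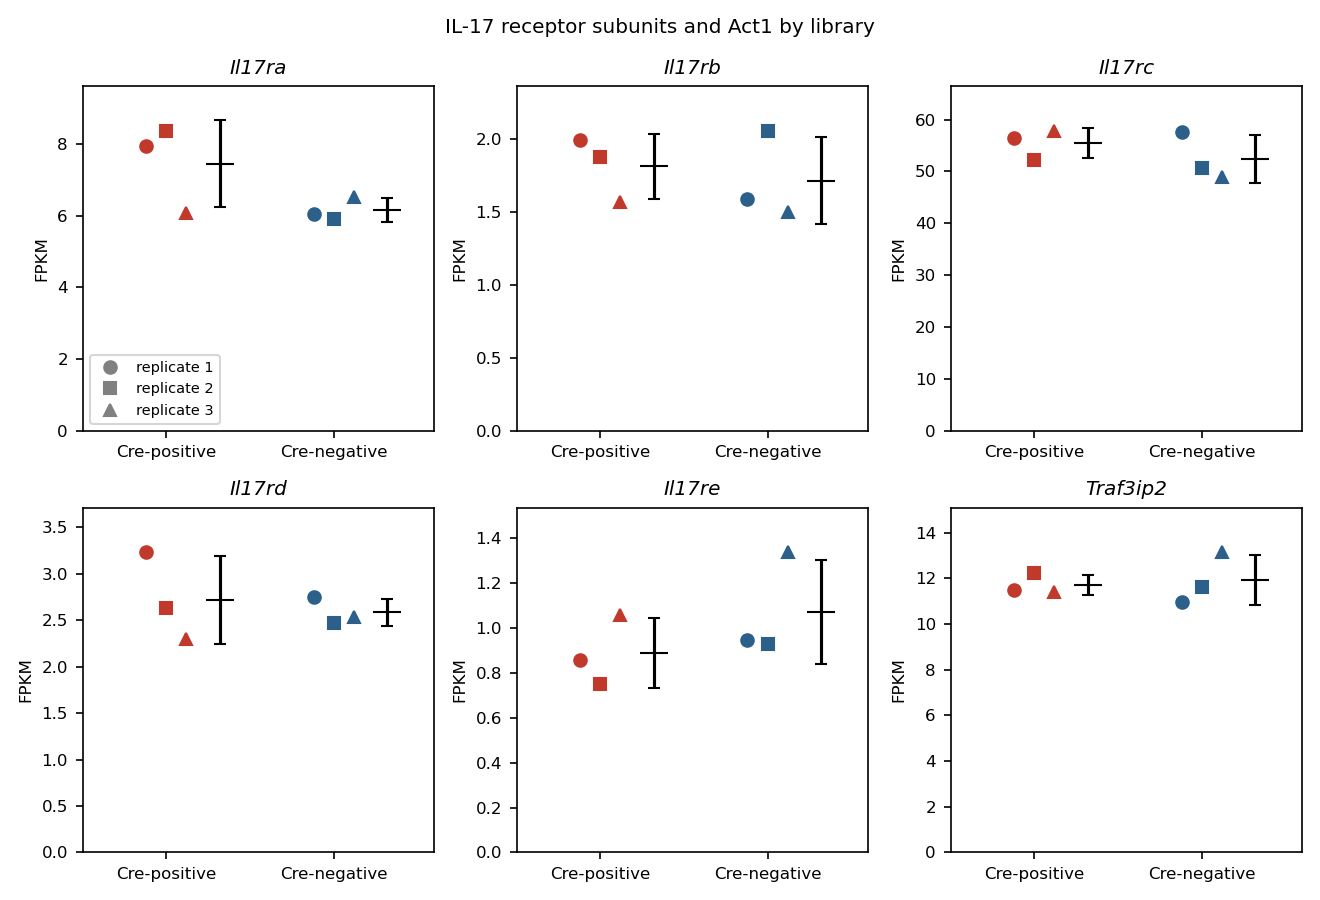
Level of each member in FPKM (vertical axes, starting at 0) in the 3 Cre-positive (left, red) and 3 Cre-negative (right, blue) libraries. Points are single mice, marked by replicate number, and the black bar is the mean with its SD. The groups overlap for all 6 genes, and Cre-positive 1 and 2 are the highest libraries for Il17ra, at 7.93 and 8.36 FPKM.

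Il17ra, the floxed gene, was not lower in Cre-positive ileum. It stood at 7.93, 8.36 and 6.07 FPKM in the Cre-positive libraries, against 6.04, 5.91 and 6.53 FPKM in the Cre-negative libraries. Cre-positive 1 and 2 were the highest of the 6, while the value of Cre-positive 3 fell between those of the Cre-negative libraries. The means were 7.45 ± 1.22 FPKM in Cre-positive and 6.16 ± 0.324 FPKM in Cre-negative ileum (SD, n = 3 each). The log2 fold change, here and below Cre-positive minus Cre-negative on the log2(FPKM + 1) scale, was 0.23 with a 95% interval of -0.07 to 0.53. It did not pass limma's test (SE 0.13, adjusted p = 0.998 over 12695 genes averaging 1 FPKM or more, threshold 0.05). By exact permutation (two-sided) p was 0.2, and 3 against 3 mice cannot give less than 0.1. Leaving out Cre-positive 3 gave an estimate of 0.35, and leaving out Cre-positive 2 gave 0.15. The value covers all exons together, so the gene did not check the labels, and directions are those of the libraries as labelled. In whole tissue, fewer cells of a type and less RNA per cell cannot be told apart.

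Cre-positive 1 and 2, the libraries with the most Il17ra, also had the highest summed B cell markers. The Cre-negative libraries did not follow this pattern. The summed level of 9 B cell genes, among them Ms4a1 (CD20) and Cd79b, was 74.4, 90.2 and 12.8 FPKM in the Cre-positive libraries, against 17.9, 14.9 and 8.40 FPKM in the Cre-negative libraries. Cre-positive 1 and 2 thus stood several fold above the other libraries, and Cre-positive 3 lay within the Cre-negative range. Among the Cre-negative libraries, replicate 3 had the most Il17ra and the lowest B cell sum. None of the 9 genes was at 0 in every library, 9 of 9 estimates were above 0 (median 1.47), and 8 had an unadjusted p under 0.05, with 0 passing after adjustment. Of all tested genes, 58.4% had an estimate above 0, and 2.54% had an unadjusted p under 0.05 on this side. Cre-positive 1 and 2 were also highest for summed T cell markers, which stood at 48.5, 43.0 and 23.1 FPKM in Cre-positive and 30.0, 33.2 and 30.7 FPKM in Cre-negative ileum. Summed markers of group 3 innate lymphoid and type 17 cells were 32.4, 34.9 and 25.0 FPKM in Cre-positive ileum. In Cre-negative ileum they were 29.1, 28.3 and 32.3 FPKM, highest in replicate 3 as for Il17ra. The part of these cell markers in the Il17ra values was not tested. With the Cre-positive group reduced to replicate 3, a setting chosen after the values were seen, the Il17ra log2 fold change was -0.02. Replicate 3 had the least Il17ra of its group, so the estimate had to fall and says nothing of the markers.

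**Figure D2:**
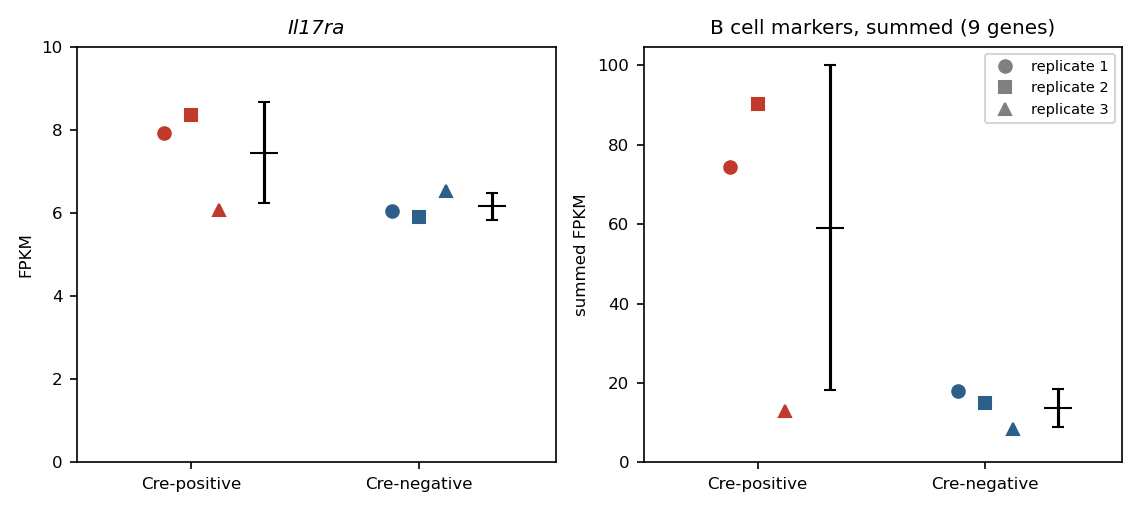
Il17ra in FPKM (left panel) and the summed FPKM of 9 B cell markers (right panel) in Cre-positive (red) and Cre-negative (blue) libraries, with the mean and SD of 3 mice in black. Cre-positive 1 and 2 are the highest libraries in both panels, and Cre-positive 3 lies among the Cre-negative libraries. Among the Cre-negative libraries, replicate 3 is highest for Il17ra and lowest for the markers.

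Il17rc, the partner of IL-17RA for IL-17A and IL-17F, was steady across the mice. It stood at 56.5, 52.1 and 57.8 FPKM in Cre-positive and at 57.6, 50.7 and 48.9 FPKM in Cre-negative ileum. The groups overlapped, with means of 55.5 ± 2.96 and 52.4 ± 4.57 FPKM (SD, n = 3 each). The log2 fold change was 0.08 (95% interval -0.15 to 0.31, limma adjusted p = 0.998). Its coefficient of variation over the 6 libraries was 7.10%, and 14.7% of tested genes varied less. If all came from the longest coding transcript, an estimated 993 to 1262 fragments per library lay behind each value, for a counting error of about 2.81% to 3.17%. Shorter transcripts would mean fewer fragments. At the shortest coding transcript of Il17rc, 186 bases, the same values would rest on 80 to 102 fragments, next to 384 to 577 for Il17ra.

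Il17rb and Il17re, the partner chains for IL-25 and IL-17C, were low. Il17rb stood at 2.00, 1.88 and 1.57 FPKM in Cre-positive and at 1.59, 2.06 and 1.50 FPKM in Cre-negative ileum. Its highest library was Cre-negative 2 and its lowest Cre-negative 3, so the Cre-negative range enclosed all Cre-positive values. The log2 fold change was 0.05 (95% interval -0.27 to 0.37, limma adjusted p = 0.998), and its sign turned under quantile normalization (-0.01) and with array weights (-0.08). Il17rb, on the minus strand of chromosome 14 from 29996135 to 30008896, shares 141 exonic bases (3.80% of its exonic bases) with Actr8 on the opposite strand. Actr8 stood at 10.5, 11.4 and 11.97 FPKM in Cre-positive and 11.4, 9.45 and 9.73 FPKM in Cre-negative ileum. The sources used here do not say whether counting used strand, so fragments of the shared bases may be assigned to either gene.

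Il17re stood at 0.858, 0.751 and 1.06 FPKM in Cre-positive and at 0.945, 0.928 and 1.34 FPKM in Cre-negative ileum. Replicate 3 was the highest library of each group, and the groups overlapped. With a mean of 0.980 FPKM it fell just under the filter of 1 FPKM and was not part of the main test. The difference in mean log2(FPKM + 1) was -0.13 (exact two-sided permutation test, p = 0.4), and without the filter limma gave the same estimate with an adjusted p of 0.980. About 19 to 35 fragments per library lay behind Il17re and 27 to 40 behind Il17rb, if all came from the longest coding transcript. Counting error alone would then be 16.99% to 22.9% for Il17re, next to a coefficient of variation of 20.6%, and 15.8% to 19.3% for Il17rb, next to 13.7%. These figures cover counting error only.

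Il17rd, the Sef receptor, stood at 3.23, 2.63 and 2.30 FPKM in Cre-positive and at 2.75, 2.47 and 2.53 FPKM in Cre-negative ileum. The Cre-positive libraries held both the highest and the lowest value and enclosed the Cre-negative range. The log2 fold change was 0.05 (95% interval -0.26 to 0.35, limma adjusted p = 0.998), and it was -0.05 without Cre-positive 1 and -0.04 under quantile normalization. The gene lies on chromosome 14 from 27038941 to 27107286.

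Traf3ip2, which encodes Act1, had values of 11.5, 12.2 and 11.4 FPKM in Cre-positive and 11.0, 11.6 and 13.1 FPKM in Cre-negative ileum. The Cre-negative libraries enclosed the Cre-positive ones. The means were 11.7 ± 0.447 and 11.9 ± 1.10 FPKM (SD, n = 3 each), with a log2 fold change of -0.02 (95% interval -0.25 to 0.21, limma adjusted p = 0.998). The sign turned without Cre-negative 3 (0.05), with array weights (0.03) and after rescaling to an equal sum (0.08). Its coefficient of variation, 6.45%, was the smallest of the members, and 11.2% of tested genes varied less. On chromosome 10, from 39612934 to 39655307, it shares 293 exonic bases with the antisense transcript E130307A14Rik, which stood at 0.306 to 0.507 FPKM in Cre-positive and 0.422 to 0.914 FPKM in Cre-negative ileum.

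Of the 5 members tested, 0 passed the threshold adjusted over all genes, as did 0% of all 12695 genes. Of the 5, 0 had an unadjusted p under 0.05, next to 3.62% of all genes (2.54% higher and 1.07% lower in Cre-positive ileum). The values of 0 members were higher, and of 0 lower, in all Cre-positive than in all Cre-negative libraries, while 5.77% of all genes were higher in this sense and 2.6% lower. Over the 5 tested members the median log2 fold change was 0.05, and over all tested genes 0.03. A p above the threshold does not show equal levels, and the intervals bound what these 6 mice allow. The lower ends of the intervals ran from -0.27 for Il17rb to -0.07 for Il17ra, and the upper ends from 0.21 for Traf3ip2 to 0.53 for Il17ra. The widths reflect both the mice and the scale, since log2(FPKM + 1) understates the change of low genes such as Il17rb.

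**Figure D3:**
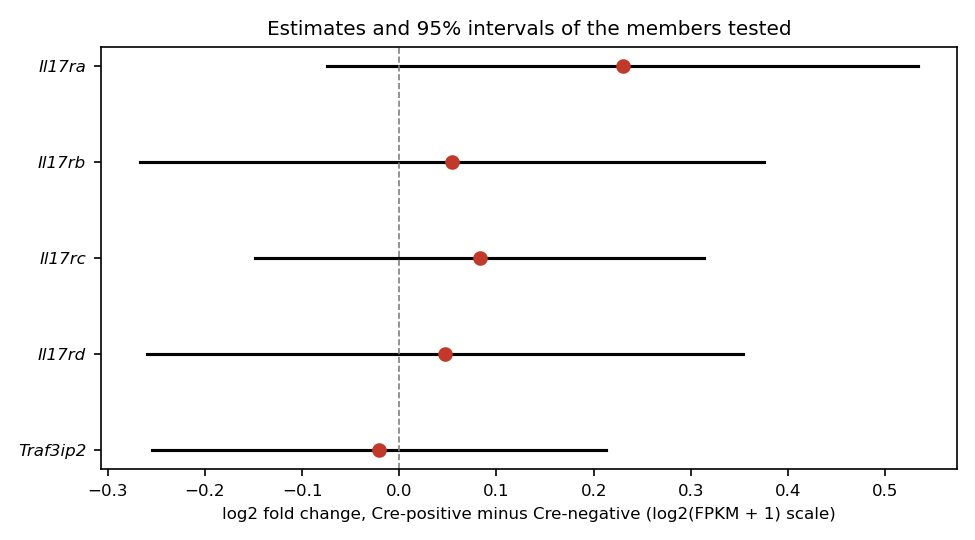
Log2 fold change, Cre-positive minus Cre-negative, of the 5 tested members on the log2(FPKM + 1) scale (horizontal axis), with 95% intervals from limma as lines. All 5 intervals cross 0, and that of Il17ra reaches furthest to the right, from -0.07 to 0.53.

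Set against Il17ra in the same library, each of the other members was lower on average in Cre-positive ileum, with overlapping groups. The 5 ratios share Il17ra as the denominator and are not independent, and a rescaling of a whole library cancels in them. The ratio of Il17rc to Il17ra was 7.12, 6.24 and 9.52 in Cre-positive and 9.53, 8.58 and 7.50 in Cre-negative ileum (log2 difference -0.18, exact two-sided permutation p = 0.4). Il17rc exceeded its partner chain 6.24-fold to 9.53-fold over the 6 libraries. The ratio of Traf3ip2 to Il17ra was 1.45, 1.46 and 1.88 in Cre-positive and 1.82, 1.97 and 2.01 in Cre-negative ileum (log2 difference -0.28, exact permutation p = 0.2). Cre-positive 1 and 2 lay below all Cre-negative libraries here, and Cre-positive 3 lay among them. The ratio of Il17re to Il17ra was 0.108, 0.0898 and 0.175 in Cre-positive and 0.156, 0.157 and 0.205 in Cre-negative ileum (log2 difference -0.52, exact permutation p = 0.3). For Il17rb and Il17rd the log2 differences were -0.18 (exact permutation p = 0.4) and -0.20 (exact permutation p = 0.2). None of the 5 ratios reached the smallest p of 0.1 that the design allows.

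**Figure D4:**
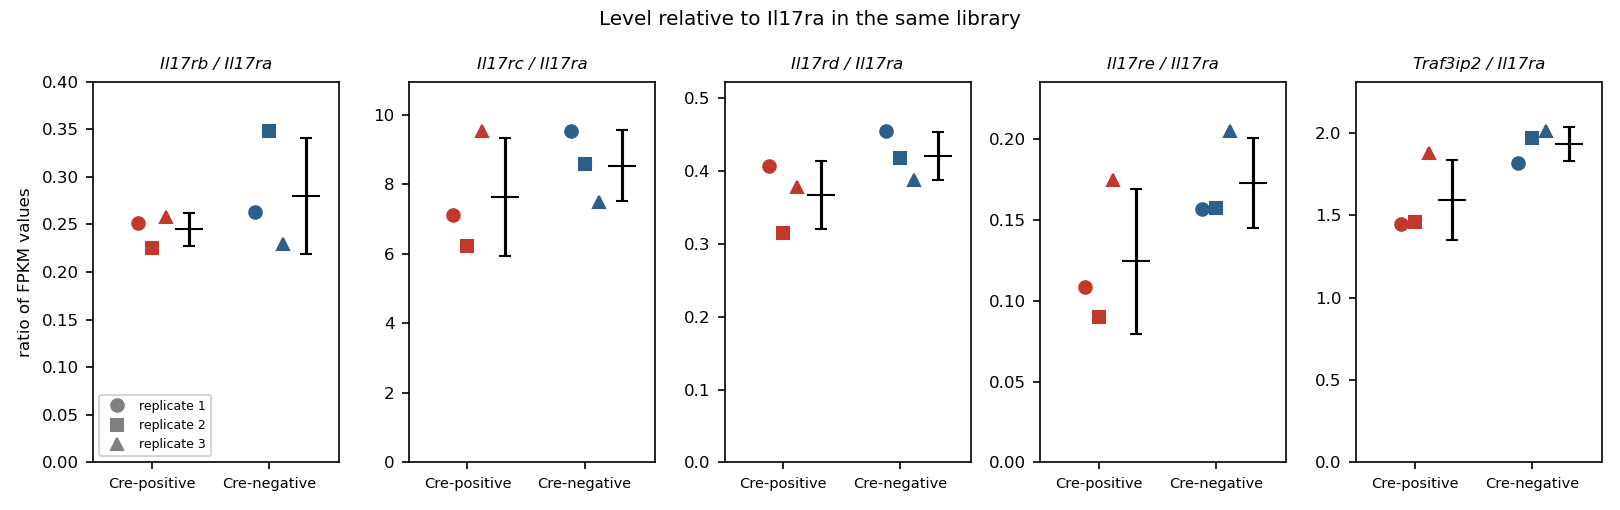
Ratio of the FPKM of each other member to that of Il17ra in the same library (vertical axes, starting at 0), in Cre-positive (left, red) and Cre-negative (right, blue) mice, with the mean and SD in black. Cre-positive 1 and 2 have the lowest ratios of Traf3ip2 to Il17ra, at 1.45 and 1.46, and the groups overlap in all 5 panels.

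Each tested member had genes whose profile over the 6 libraries was close to its own, measured as the root mean square difference between log2(FPKM + 1) profiles centred on their means. Nearest to Il17ra were Atp10d, a phospholipid-transporting ATPase family member, at 0.0359, Wdr47 at 0.0473 and Dusp5, a phosphatase that inactivates ERK, at 0.0491. The spread of Il17ra about its own mean was 0.174 on this scale. Dusp5 stood at 7.07, 6.88 and 5.47 FPKM in Cre-positive and 5.60, 5.34 and 5.67 FPKM in Cre-negative ileum, again high in Cre-positive 1 and 2. Nearest to Il17rc were the integrin gene Itgb3 (0.0174), the zinc transporter gene Slc30a9 (0.0211) and Rragd (0.0240), which encodes a Rag GTPase of the amino acid sensing pathway. Nearest to Traf3ip2 were Ccdc6 (0.0209), the telomere protein gene Terf2ip (0.0255) and the lipid transporter gene Abca3 (0.0266). For Il17rd they were Mfsd11 (0.0201), the endoplasmic reticulum stress kinase gene Eif2ak3 (0.0342) and Trim16 (0.0375), and for Il17rb Simc1 (0.0308), Ralgds (0.0313) and Slc22a15 (0.0364). With 12695 genes and 6 libraries, close profiles of this kind arise among many genes, and no member was among the nearest of another.

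The IL-17 family ligands were low, and all but Il17d were close to the limit of detection. Il17a was listed at 0.201, 0 and 0 FPKM in Cre-positive and at 0.0983, 0 and 0 FPKM in Cre-negative ileum, and Il17f at 0 in the 3 Cre-positive and at 0.0976, 0 and 0.105 FPKM in the Cre-negative libraries. Il17c was listed at 0.216, 0.233 and 0 FPKM in Cre-positive and at 0 in the 3 Cre-negative libraries, and Il25, the tuft cell ligand of IL-17RB, ranged from 0 to 0.246 FPKM in Cre-positive and from 0 to 0.236 FPKM in Cre-negative ileum. Il17b was listed at 0.199, 0 and 0 FPKM in Cre-positive and at 0.193, 0 and 0.204 FPKM in Cre-negative ileum. Il17d was the highest of the 6 ligands at 0.478, 0.519 and 0.871 FPKM in Cre-positive and 0.841, 0.672 and 0.401 FPKM in Cre-negative ileum. None of the 6 ligands reached a mean of 1 FPKM, so 0 were tested, and values this low rest on very few fragments.

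Of 83 listed genes of the pathway, the 6 ligands included, 82 were in the table and 65, none of them a ligand, were tested. After adjustment over all genes, 0 passed in either direction, and 2 had an unadjusted p under 0.05 with a higher level in Cre-positive ileum and 0 with a lower one (3.08% in both directions together, against 3.62% of all genes, of which 2.54% were higher and 1.07% lower). Those 2 were Traf5, a TRAF protein that binds Act1 complexes, and Nfkbia, the NF-kB inhibitor IkB-alpha. Traf5 stood at 3.22, 4.17 and 2.64 FPKM in Cre-positive and 2.80, 1.90 and 1.89 FPKM in Cre-negative ileum (log2 fold change 0.44). Nfkbia stood at 66.2, 59.9 and 48.1 FPKM in Cre-positive and 43.9, 46.9 and 48.4 FPKM in Cre-negative ileum (log2 fold change 0.31). In both genes Cre-positive 1 and 2, the libraries with high B cell markers, were highest and Cre-positive 3 overlapped the Cre-negative range; the part of those markers was not tested. Traf6, the ubiquitin ligase downstream of Act1, averaged 9.71 FPKM in Cre-positive and 10.7 FPKM in Cre-negative ileum (log2 fold change -0.13), and Traf1 2.69 and 1.81 FPKM (0.37).

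Other signalling genes of the pathway had small estimates. Among the kinases and their partners, 12 of 18 estimates were below 0 (median -0.01). Tab3, a subunit of the TAK1 complex, stood at 8.28, 7.20 and 7.75 FPKM in Cre-positive and 8.996, 9.24 and 9.23 FPKM in Cre-negative ileum (log2 fold change -0.22). It was the only pathway gene tested whose groups did not overlap, 1 of 65 where 2.6% of all genes were lower in this sense and 5.77% higher, and its limma adjusted p was 0.998. Tab2 and Tbk1, a kinase that phosphorylates Act1, had log2 fold changes of -0.09 and -0.11. Among 11 tested transcription factors 6 estimates were above 0 (median 0.01), and the smallest p values were those of Junb (-0.32), Rela (-0.09) and Nfkbiz (-0.15), an IL-17-induced co-activator. Of 6 mRNA stability factors 5 estimates were above 0 (median 0.06), with Arid5a (0.23), a factor that stabilizes IL-17 target transcripts, Dcp1a (0.09) and Srsf1 (0.08) first by p. Of 9 inhibitors 7 were above 0 (median 0.08), with Tnip1, a partner of A20, at 0.17 and Usp18 at -0.33.

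The epithelial targets of IL-17 had the lowest median of the pathway lists, -0.48 over 12 tested genes, 8 of them below 0, and 0 passed the threshold. The median over all genes was 0.03, and 58.4% of all tested genes had an estimate above 0. The list's median lay between S100a8 (-0.52) and S100a9 (-0.43). Both also stand on the list of neutrophil markers, and they averaged 2.19 and 1.03 FPKM over all libraries. Nos2 (-0.55) stood at 22.0, 14.3 and 17.5 FPKM in Cre-positive and 9.40, 15.1 and 121 FPKM in Cre-negative ileum. Duoxa2, the maturation factor of the hydrogen peroxide generator DUOX2, stood at 7.23, 9.60 and 9.07 FPKM in Cre-positive and 7.69, 25.9 and 23.1 FPKM in Cre-negative ileum (log2 fold change -0.89). Reg3b, an antimicrobial lectin, stood at 3141, 4099 and 3504 FPKM in Cre-positive and 3874, 9184 and 7520 FPKM in Cre-negative ileum (-0.86), and its relative Reg3g had a log2 fold change of -0.81. The high values were those of Cre-negative 2 and 3 in each of the 3 genes, and Cre-negative 1 lay within the Cre-positive range. Pigr, the IgA transporter, stood at 1188, 1217 and 1237 FPKM in Cre-positive and 1228, 1235 and 1118 FPKM in Cre-negative ileum (0.03). Csf3, Il19 and Saa2 were listed at 0 in all 6 libraries. Cxcl1 and Saa1, under the filter and not tested, were listed at 0 in the Cre-positive libraries. In the Cre-negative libraries Cxcl1 stood at 0.127 to 0.393 FPKM and Saa1 at 0.233 to 1.93 FPKM, so their groups did not overlap. Values this low rest on few fragments, and both genes were named after their values were seen. Of all tested genes, 2.6% were lower in this sense, but that share leaves out genes under the filter. No share was computed for those. The groups overlapped for Cxcl2, Cxcl5, Il6, Steap4 and Muc1, also under the filter.

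**Figure D5:**
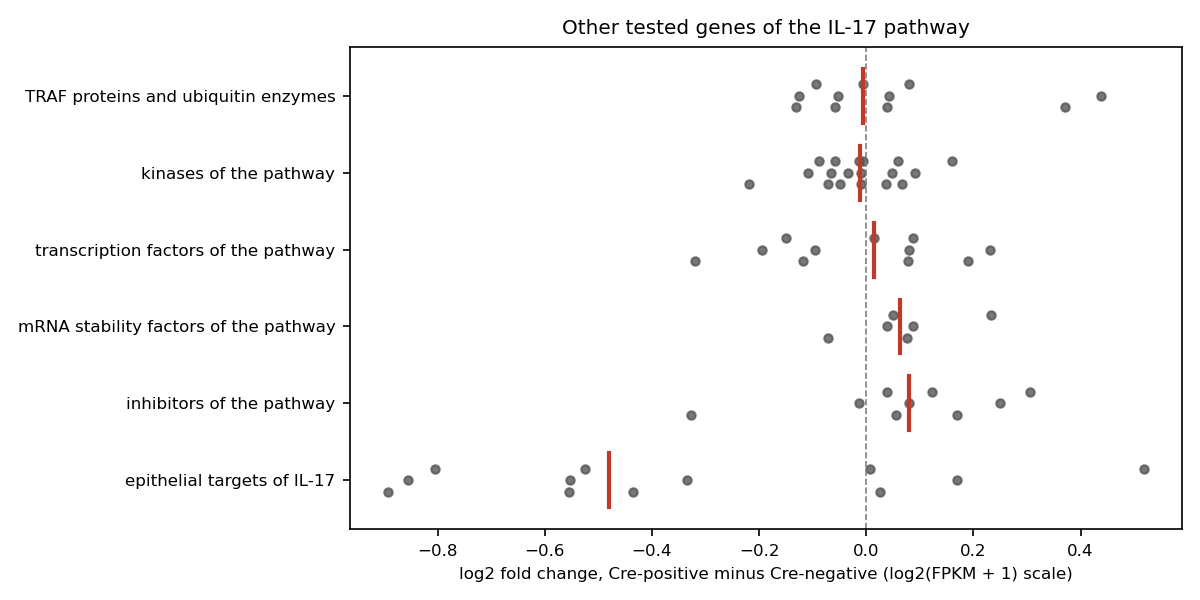
Log2 fold changes, Cre-positive minus Cre-negative on the log2(FPKM + 1) scale, of the 65 tested pathway genes by list (points, with 2 genes standing in 2 lists) and each list's median (red line). Points of the signalling lists lie around 0, and the epithelial targets have a median of -0.48 with a spread from -0.89 to 0.52.

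The tissue carried markers of small intestinal epithelium. The libraries had 16317 to 16547 genes above 0, and their depth, estimated from whole-fragment steps, was about 8160000 to 9520000 fragments. Most absorptive enterocyte markers were abundant, led by the apolipoprotein gene Apoa1 at 1728 to 5747 FPKM in Cre-positive and 2782 to 5837 FPKM in Cre-negative ileum, and so were the epithelial keratin gene Krt8 (901 to 1055 FPKM in Cre-positive and 882 to 1025 FPKM in Cre-negative ileum) and the goblet cell gene Zg16 (1742 to 2642 FPKM in Cre-positive and 1944 to 2779 FPKM in Cre-negative ileum). Summed goblet markers were 6423 to 8217 FPKM in Cre-positive and 7145 to 7769 FPKM in Cre-negative ileum, and summed tuft markers 22.8 to 31.3 FPKM in Cre-positive and 24.2 to 27.6 FPKM in Cre-negative ileum. Summed Paneth cell markers, led by Defa24, were 20435 to 31331 FPKM in Cre-positive and 24796 to 40677 FPKM in Cre-negative ileum, with 9 of 9 estimates below 0 (median -0.32), 3 of them with an unadjusted p under 0.05 and 2 with groups that did not overlap, next to 1.07% and 2.6% of all genes on this side. Summed adipocyte markers were 72.6 to 83.6 FPKM in Cre-positive and 81.7 to 196 FPKM in Cre-negative ileum, with 5 of 5 estimates below 0, 3 at an unadjusted p under 0.05 and 2 without overlap. After adjustment, 0 genes of either list passed, and the part of these markers in the members' values was not tested. Of the markers of group 2 innate lymphoid cells, which are known to carry IL-17RB, 2 of 8, Il5 and Il13, were at 0 in all libraries, while the other 6 were detected in each. Among them Il1rl1, the IL-33 receptor, stood at 0.848 to 2.80 FPKM in Cre-positive and 2.20 to 4.32 FPKM in Cre-negative ileum, and Gata3 at 0.411 to 1.23 FPKM in Cre-positive and 0.413 to 0.550 FPKM in Cre-negative ileum. Hes1, the highest gene of the list, stood at 23.4 to 33.5 FPKM in Cre-positive and 16.7 to 28.6 FPKM in Cre-negative ileum. Its level in whole tissue does not show which cells carried it, so it is no measure of these lymphoid cells. The labels give no sex, and Xist was high in 2 Cre-positive and 1 Cre-negative libraries. In those with high Xist, Il17ra stood at 8.36 and 6.07 FPKM in Cre-positive and 6.53 FPKM in Cre-negative ileum, and in those with high Ddx3y, on the Y chromosome, at 7.93 FPKM in Cre-positive and 6.04 and 5.91 FPKM in Cre-negative ileum.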

How the data were processed

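The authors deposited 1 table of FPKM values per gene and library. Per the submitters' processing notes, Cufflinks and Cuffnorm were used, with STAR, SAMtools, bedtools, Trimmomatic and FastQC, and the builds were GRCm38 and mm10. Per the labels' protocols, libraries were made with a directional NEBNext kit. The sources used here do not state the scaling between libraries, the use of strand or the sharing of ambiguous fragments. Columns were matched to samples by genotype and replicate number.

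The 12695 genes averaging 1 FPKM or more over 6 libraries were compared on log2(FPKM + 1) with limma's two-sided moderated test, with an intensity trend, Benjamini-Hochberg adjustment over all genes and a threshold of 0.05. Count models need counts and were not used. Single values and ratios were compared by exact two-sided permutation tests, and no set test was run. Each library is 1 mouse. The script was tested on simulated data.

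Genes named are the members, their 3 nearest profiles, the 3 smallest p values per pathway list, the highest gene of some of the marker lists, and genes that a sentence turns on, chosen after their values were seen (among them Pigr, Ms4a1, Actr8, Fabp6, Slc10a2, Il1rl1, Gata3, Cxcl1, Saa1 and Xist). A gene of the marker lists is not reported here. Members and lists were chosen with earlier results of these data known. Positions come from GENCODE M21, and promoter sequences from RefSeq (GRCm38.p6; 4 of 6 members matched). Depth was estimated from steps in low values of genes with 1 transcript, and no interval was computed for it. The errors given for fragments cover counting only. Software was limma 3.58.1 under R 4.3.3, and scipy 1.17.1, numpy 2.4.6, pandas 2.3.3 and matplotlib 3.10.9 under Python 3.11.15.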

Additional observations from a re-analysis of the deposited data

How the results depend on the processing

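No member passed the threshold under any alternative run, and 0 pathway genes passed under any. The estimates of Il17rc (0.04 to 0.20) and Il17re (-0.24 to -0.04) kept their sign under each. Il17ra ranged from 0.15 to 0.35 except with the Cre-positive group reduced to replicate 3 (-0.018), where its lone library is assumed to vary like the others. That setting also turned Il17rb (-0.076) and Il17rd (-0.12). Quantile normalization turned Il17rb (-0.014) and Il17rd (-0.037), array weights turned Il17rb (-0.075) and Traf3ip2 (0.033), and equal-sum rescaling, which moved the median of all genes from 0.029 to 0.13, turned Traf3ip2 (0.085). With 1 library left out, Il17rb ranged from -0.0035 to 0.14, Il17rd from -0.049 to 0.13 and Traf3ip2 from -0.073 to 0.046. The cause was not tested. Signs of the 5 ratios to Il17ra held with a pseudocount of 0.1 and with 1 library left out. The ratios were not run under the other settings.

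Of all genes, 0 passed in the main setting (459 at an unadjusted p under 0.05). The count was 2 with a pseudocount of 0.1 or 5 and with equal-sum rescaling, 24 with array weights, 4 with the Cre-positive group reduced to replicate 3, and 0 to 41 with 1 library left out, the 41 without Cre-positive 3. The replicate number as a block gave 1 and changed no other call. Deviations of same-numbered libraries correlated at -0.13, 0.03 and -0.11, so the numbers were not taken as pairs. A sex term and the reduced group were chosen after seeing the data, and the sex term gave 0. Il17rb and Il17rd had no value at a filter of 5 FPKM, and Il17re none in the settings that need the fit, being under the filter. Il17rb and Il17re rest on few fragments.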
